A study of Mus musculus with 62 samples.

Results

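The Bcl2 family of apoptosis regulators was followed in 10 of the 53801 genes of a count matrix of mouse CD11b+ cells. CD11b is a surface protein of microglia and other myeloid cells, and the series title calls the cells microglia. The 10 genes are given by name, with no threshold on their values. They are Bcl2a1a, Bcl2a1b, Bcl2a1d, Bcl2, Bcl2l1 and Mcl1, which keep cells alive, Bax and Bak1, which open the mitochondrial outer membrane, and Bcl2l11 and Bid, which pass on death signals. All 10 passed the filter on low counts.

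The study compared 4 genotypes at 4, 6 and 12 months of age in 62 libraries. WT mice are wild type, NLRP3 mice lack Nlrp3, the sensor protein of an inflammasome, APPPS1 mice carry the transgenes of an amyloid model of Alzheimer's disease, and APPPS1_NLRP3 mice carry those transgenes and lack Nlrp3. The labels give neither the strain nor the promoter that drives the transgenes. A second set of 12-month libraries of each genotype carries the tag Mxo4 in its titles, a word that the sources used here do not explain. The 16 groups held 3 to 5 libraries, and each library is named here by its replicate number. The labels do not say whether libraries of a group came from separate mice, so the p-values reflect the spread among the libraries at hand, which may be technical.

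Proteins of the family meet at the surface of mitochondria. Bax and Bak1 can assemble into pores that release cytochrome c and start caspase activation, and the survival members bind them or their activators and hold them in check. BH3-only members such as Bcl2l11, also called Bim, and Bid, which caspase-8 can cleave into an active form, tip this balance towards death. Bcl2a1, known in humans as BFL1 or A1, is a survival member mostly found in blood and immune cells. In the mouse it exists as several nearly identical gene copies. Its transcription, like that of Bcl2l1, is known to respond to NF-kB. Microglia depend on signals from the receptor Csf1r to stay alive, and Mcl1 protein turns over fast in many cell types.

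The cells matched their label. The microglial gene P2ry12 reached at least 3318 CPM in every library of usable depth, and Itgam, which encodes CD11b, reached at least 301.6 CPM. CPM are the usual depth-normalised read counts, here over the 19865 tested genes and scaled by trimmed mean of M-values (TMM). Nlrp3 lay between 60.4 and 271.1 CPM in the 30 usable libraries of the genotypes with Nlrp3, and between 0 and 2.27 CPM in the 31 libraries of the genotypes without it. Total counts were 18392142.5 at the median and 27604393 at most, and 3 libraries held less than 11484943. APPPS1_6m replicate 21 held 659 counts, stayed in the model and was left out of all levels, which leaves 61 libraries of usable depth. NLRP3_12m replicate 45 held 1394435 counts.

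Further libraries stood apart. APPPS1_12m_Mxo4 replicate 56 had 10.9 CPM of Cst7, an amyloid response gene of microglia, against 1649 to 2396 CPM in the other 3 libraries of its group and 11.5 to 33.96 CPM in WT_12m_Mxo4. APPPS1_NLRP3_12m replicate 43 had 201.8 CPM of Slc1a3, a glutamate transporter. Slc1a3 lay between 191.7 and 458.9 CPM in the genotypes with Nlrp3, at 341.8 CPM in NLRP3_6m replicate 32 and between 1171 and 2931 CPM in the other libraries without Nlrp3. Sex, read from Xist and 4 Y-linked genes, was female in 42 libraries and male in 19. WT_12m and APPPS1_12m were all female while NLRP3_12m and APPPS1_NLRP3_12m were all male, so at untagged 12 months sex and Nlrp3 genotype cannot be told apart. All 4-month libraries were female.

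The 3 Bcl2a1 copies lie within 1 cluster on chromosome 9 of mm10 (GRCm38). Bcl2a1d (ENSMUSG00000099974) spans chr9:88723285-88731914 on the minus strand, Bcl2a1a (ENSMUSG00000102037) chr9:88956900-88962419 on the plus strand and Bcl2a1b (ENSMUSG00000089929) chr9:89199209-89207827 on the plus strand. The other members lie at chr1:106538178-106714274 (Bcl2, minus), chr2:152780668-152831728 (Bcl2l1, minus), chr3:95658788-95663176 (Mcl1, plus), chr7:45461697-45466898 (Bax, minus), chr17:27019810-27029009 (Bak1, minus), chr2:128126038-128162547 (Bcl2l11, plus) and chr6:120891930-120916853 (Bid, minus). Each Bcl2a1 copy codes over 516 bases. The coding sequences differ at 6 bases between Bcl2a1b and Bcl2a1d, at 7 between Bcl2a1a and Bcl2a1d and at 11 between Bcl2a1a and Bcl2a1b, identities of 98.8%, 98.6% and 97.9%. The first 150 coding bases of the GENCODE transcripts hold 7 of the 12 positions that differ among the copies and show what the counting had to tell apart. They are printed with the differing positions in capitals.
Bcl2a1a: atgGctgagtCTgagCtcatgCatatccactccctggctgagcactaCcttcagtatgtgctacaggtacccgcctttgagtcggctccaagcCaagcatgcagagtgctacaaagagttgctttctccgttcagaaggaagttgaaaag
Bcl2a1b: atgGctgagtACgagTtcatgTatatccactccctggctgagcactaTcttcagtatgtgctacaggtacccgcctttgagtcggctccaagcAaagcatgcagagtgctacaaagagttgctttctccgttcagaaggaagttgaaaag
Bcl2a1d: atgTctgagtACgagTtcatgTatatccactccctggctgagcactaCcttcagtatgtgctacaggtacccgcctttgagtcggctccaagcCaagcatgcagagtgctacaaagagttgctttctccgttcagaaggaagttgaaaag

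A read of 125 bases, the read length of the study, fits word for word into another copy at 39.4% of its possible positions in the Bcl2a1d transcript, 34.4% in Bcl2a1a and 20.9% in Bcl2a1b. How the authors' counting treated reads that match several copies is not given in the sources used here. The level of each single copy is therefore uncertain, and the sum of the copies is given beside them. The Bcl2a1b exons also share 401 bases, 49.1% of their length, with the predicted gene Gm29094 on the same strand, which stayed at or below 2.39 CPM. That low level does not show how reads over the shared bases were counted. If they were counted for neither gene, Bcl2a1b and the sum of the copies lack them. Bcl2, Bak1 and Bid overlap exons of genes on the opposite strand (D630008O14Rik, Ggnbp1 and Bcl2l13), and Bax shares 192 bases with Gm45808 on its own strand. Whether counting used strand is not stated either.

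The promoters of the copies are alike too. RefSeq promoter windows (GRCm38.p6, 250 bases before to 50 after the start) of Bcl2a1b and Bcl2a1d are printed because these are the most abundant copy and the copy with the largest transgene difference. Capitals mark GAGGAAGT, a binding word of PU.1, the transcription factor that defines myeloid cells.
Bcl2a1b, chr9:89199023-89199322, plus strand: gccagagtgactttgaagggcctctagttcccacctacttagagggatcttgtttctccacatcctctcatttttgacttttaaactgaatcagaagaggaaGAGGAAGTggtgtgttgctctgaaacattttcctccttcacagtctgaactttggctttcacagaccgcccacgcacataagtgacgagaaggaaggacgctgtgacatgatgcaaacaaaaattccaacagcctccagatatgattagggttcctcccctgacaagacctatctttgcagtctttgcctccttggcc
Bcl2a1d, chr9:88731801-88732100, minus strand: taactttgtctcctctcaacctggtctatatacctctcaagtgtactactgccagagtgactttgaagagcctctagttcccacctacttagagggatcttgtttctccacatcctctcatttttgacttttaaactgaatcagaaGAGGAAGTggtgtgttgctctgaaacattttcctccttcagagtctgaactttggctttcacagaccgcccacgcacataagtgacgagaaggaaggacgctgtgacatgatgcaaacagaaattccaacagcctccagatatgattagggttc
The word was searched on both strands. It occurs in the windows of Bcl2a1a, Bcl2a1b, Bcl2a1d and Bak1, 4 of 13 member windows, and in 3.2% of all 32851 windows. The windows of the copies are alike, so their matches are not independent. The NF-kB motif, GGG and CC separated by any 5 bases and searched on both strands, occurs in 9 of the 13 member windows and in 50.8% of all windows. Bcl2a1a and Bcl2a1d are the members with no match. Their windows end inside the stretch that holds the Bcl2a1b match, so the rest of it was not searched there. These matches describe letters and not binding.

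With the Bcl2a1 copies taken singly, Mcl1 was the most abundant member per length in WT_4m and in APPPS1_12m. In WT_4m it stood at 295.3 ± 32.8 CPM per kilobase of exon (SD, n = 4). Bcl2a1b followed at 80.6 ± 11.1 CPM per kilobase. Bcl2a1a at 21.03 ± 4.27, Bid at 20.8 ± 3.12 and Bcl2l1 at 20.7 ± 1.74 CPM per kilobase came next and did not differ beyond their spread. Bax at 11.9 ± 0.729, Bcl2a1d at 11.5 ± 4.00 and Bcl2l11 at 10.0 ± 0.388 CPM per kilobase formed the next step. The range of Bcl2a1d overlapped both others there and, through replicate 4, the lowest libraries of Bcl2a1a and Bid. Bcl2 at 1.25 ± 0.115 and Bak1 at 0.409 ± 0.151 CPM per kilobase were lowest and did not overlap.

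In APPPS1_12m the order had changed for the Bcl2a1 copies. Mcl1 stood at 432.8 ± 46.5 CPM per kilobase, Bcl2a1b at 337.6 ± 159.5, Bcl2a1d at 221.6 ± 90.1 and Bcl2a1a at 120.5 ± 53.96 (SD, n = 5), with overlapping ranges between each neighbouring pair. Within each of the 5 libraries, though, Bcl2a1b stood above Bcl2a1d and Bcl2a1d above Bcl2a1a. Bcl2l1 at 25.7 ± 5.20, Bax at 17.1 ± 4.27 and Bid at 16.8 ± 2.81 CPM per kilobase overlapped. Bcl2l11 had 8.53 ± 1.94, Bcl2 2.56 ± 0.475 and Bak1 0.351 ± 0.259 CPM per kilobase. In bulk libraries, more cells with an RNA and more of that RNA per cell cannot be told apart.

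The Bcl2a1 copies differed most between genotypes. Over the 16 group means, Bcl2a1d ranged 21.2-fold, from 9.04 CPM in NLRP3_6m to 191.2 CPM in APPPS1_12m. Bcl2a1a ranged 5.73-fold and Bcl2a1b 4.91-fold, and Bcl2, the next member, 2.83-fold. Tests were edgeR's quasi-likelihood F tests fitted over all libraries, with p-values adjusted by Benjamini and Hochberg over the 19865 genes of each comparison. A gene is called here when its adjusted p is below 0.05. Overlap of groups is described for the members only, and its share over all genes was not counted. Values after ± are standard errors for log2 differences. Library titles end in 3 numbers whose meaning the labels do not give. The model holds a term for the second, which is 1 or 2, and alternatives with the first as well, with neither, or within 1 value of the second are given where they end a call.

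At 4 months Bcl2a1d was the 1 member called between APPPS1 and WT, where 0.0252% of all tested genes were called. Its level was 42.9, 47.1 and 46.7 CPM in the 3 APPPS1 libraries and 8.06, 15.1, 7.86 and 8.82 CPM in the 4 WT libraries. Each APPPS1 library exceeded the highest WT library, replicate 4. Bcl2a1d rose by 2.22 ± 0.41 on the log2 scale (edgeR, adjusted p = 0.0247). The call was lost without any 1 of replicates 1, 3, 5, 6 or 7, with adjusted p of 0.258, 0.152, 0.148, 0.138 and 0.12, while the difference stayed at 2.13 or more. It was also lost without the filter on low counts (adjusted p = 0.055) and within second title number 2 (1.95, 0.312). Bcl2a1b differed by -0.17 ± 0.26 and Bcl2a1a by 0.38 ± 0.32, and neither was called. In APPPS1_NLRP3_4m, Bcl2a1d was 14.3, 21.4, 20.8 and 14.7 CPM, against 9.15 to 15.2 CPM in NLRP3_4m, and no member was called among 0.0101% of all genes (edgeR, 0 of 10 at an unadjusted p below 0.05, and 0 by DESeq2).

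At 6 months Bcl2a1d was called in both transgene comparisons. In APPPS1 it was 78.9, 78.2 and 76.4 CPM in the usable libraries, and in WT 15.4, 14.8, 11.7, 22.2 and 13.2 CPM. The groups did not overlap, and the APPPS1 libraries were close to each other. Bcl2a1d rose by 2.31 ± 0.37 (edgeR, adjusted p = 7.32e-05), in a comparison that called 3.03% of all genes and 2 members. In APPPS1_NLRP3 it was 46.8, 46, 57.2, 69.5 and 80.4 CPM, and in NLRP3 8.83, 8.98, 8.81 and 9.53 CPM. The NLRP3 libraries lay in a narrow band far below every APPPS1_NLRP3 library. The difference was 2.72 ± 0.39 (edgeR, adjusted p = 3.64e-06), where 8.03% of all genes and 6 members were called.

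The other copies were called at 6 months without Nlrp3. Bcl2a1b was 168.8, 141.7, 168.3, 161.4 and 248.3 CPM in APPPS1_NLRP3 against 59.2, 55.6, 59.8 and 49.8 CPM in NLRP3, a rise of 1.65 ± 0.23 (edgeR, adjusted p = 2.52e-06). Bcl2a1a was 43.5, 47.03, 47.9, 44.4 and 81.9 CPM against 21.3, 16, 18.3 and 20.04 CPM, a rise of 1.47 ± 0.29 (edgeR, adjusted p = 0.000336). Neither pair of groups overlapped, and replicate 31 was the highest library for both copies. With Nlrp3 intact, Bcl2a1a differed by 0.86 ± 0.29 (edgeR, adjusted p = 0.0963), with no overlap between groups, and Bcl2a1b by 0.32 ± 0.24 (adjusted p = 0.529). Bcl2a1a was called without replicate 19 (1.07, edgeR, adjusted p = 0.0384) and without the doubted libraries (0.85, 0.0432). The doubted libraries are replicates 21 and 45, with few counts, and 56, an alternative chosen after seeing the data.

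All copies were called at untagged 12 months in APPPS1 against WT. Bcl2a1d was 302.8, 139.6, 103.0, 184.3 and 226.5 CPM in APPPS1 replicates 35, 36, 37, 38 and 41, and 16.99, 13.5 and 12.3 CPM in WT. The lowest APPPS1 library was far above the highest WT library. The rise of 3.76 ± 0.45 (edgeR, adjusted p = 6.31e-08) was the largest of any member in any of the transgene comparisons. Bcl2a1b was 458.4, 203.5, 137.7, 219.4 and 359.9 CPM against 87.2, 81.0 and 74.7 CPM, a rise of 1.78 ± 0.26 (edgeR, adjusted p = 1.41e-06). Bcl2a1a was 159.9, 63.8, 60.9, 78.3 and 130.4 CPM against 26.99, 16.9 and 24.5 CPM, a rise of 2.12 ± 0.33 (edgeR, adjusted p = 3.13e-06). No group pair overlapped, and for each copy replicate 35 was highest and replicate 37 lowest in APPPS1. The comparison called 18.1% of all genes and 5 members, and leaving out any single library lost no Bcl2a1 call in it.

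Without Nlrp3 at untagged 12 months, Bcl2a1d was the 1 called copy. It was 97.6, 38.3, 38.2 and 56.3 CPM in APPPS1_NLRP3 replicates 43, 44, 46 and 49, and 32.8, 31.96, 15.8 and 20.5 CPM in NLRP3. The groups did not overlap but came close, and replicate 43, whose Slc1a3 was at the level of the genotypes with Nlrp3, was highest. The rise was 1.23 ± 0.39 (edgeR, adjusted p = 0.0381), in a comparison that called 8.69% of all genes and 2 members. Without replicate 43 it was 0.87 (adjusted p = 0.226), and the call was also lost without replicates 47 (0.144), 48 (0.105) or 49 (0.058), adjusted p in parentheses. It was lost as well with both title numbers in the model (1.15, adjusted p = 0.0785), without the filter (1.26, 0.063) and within second title number 1 (1.18, 0.0699) or 2 (1.08, 0.379). Bcl2a1b differed by 0.50 ± 0.24 and Bcl2a1a by 0.47 ± 0.30, with neither called (adjusted p = 0.21 and 0.387), although neither pair of groups overlapped.

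In the Mxo4 set, Bcl2a1d was 11.4, 62.5, 91.9 and 144.9 CPM in APPPS1 and 12.9, 14.95 and 22.1 CPM in WT. Replicate 56 lay below every WT library and the other 3 lay above. Bcl2a1d rose by 2.23 ± 0.43 (edgeR, adjusted p = 0.000687) and Bcl2a1b by 1.12 ± 0.26 (edgeR, adjusted p = 0.0048), where 5.08% of all genes and 4 members were called. Bcl2a1b was 89.5, 232.9, 282.4 and 211.3 CPM in APPPS1 against 75.5, 93.0 and 115.0 CPM in WT. Within second title number 2, where replicate 56 is the 1 APPPS1 library, Bcl2a1d differed by -0.19 and Bcl2a1b by 0.24 and neither was called (adjusted p = 1 each). The Bcl2a1b call was lost without replicate 58 (log2 0.92, adjusted p = 0.0521) or 60 (0.96, 0.0659). Without replicate 56 Bcl2a1a was called too (1.11, edgeR, adjusted p = 0.00608).

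In APPPS1_NLRP3_12m_Mxo4, Bcl2a1b was 204.8, 239.1 and 266.4 CPM against 101.7, 81.2 and 111.5 CPM in NLRP3_12m_Mxo4. Bcl2a1d was 39.6, 59.5 and 81.0 CPM against 15.3, 19.2 and 25.6 CPM. All transgenic libraries lay above all others for both copies. The rises were 1.24 ± 0.28 for Bcl2a1b (edgeR, adjusted p = 0.00256) and 1.55 ± 0.44 for Bcl2a1d (adjusted p = 0.0251), where 5.14% of all genes and 5 members were called. The Bcl2a1d call was lost without replicate 50 (1.38, adjusted p = 0.151), 51 (1.55, 0.0893), 53 (1.56, 0.06) or 54 (1.28, 0.163), and with a sex term (1.44, 0.0512).

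**Figure D1:**
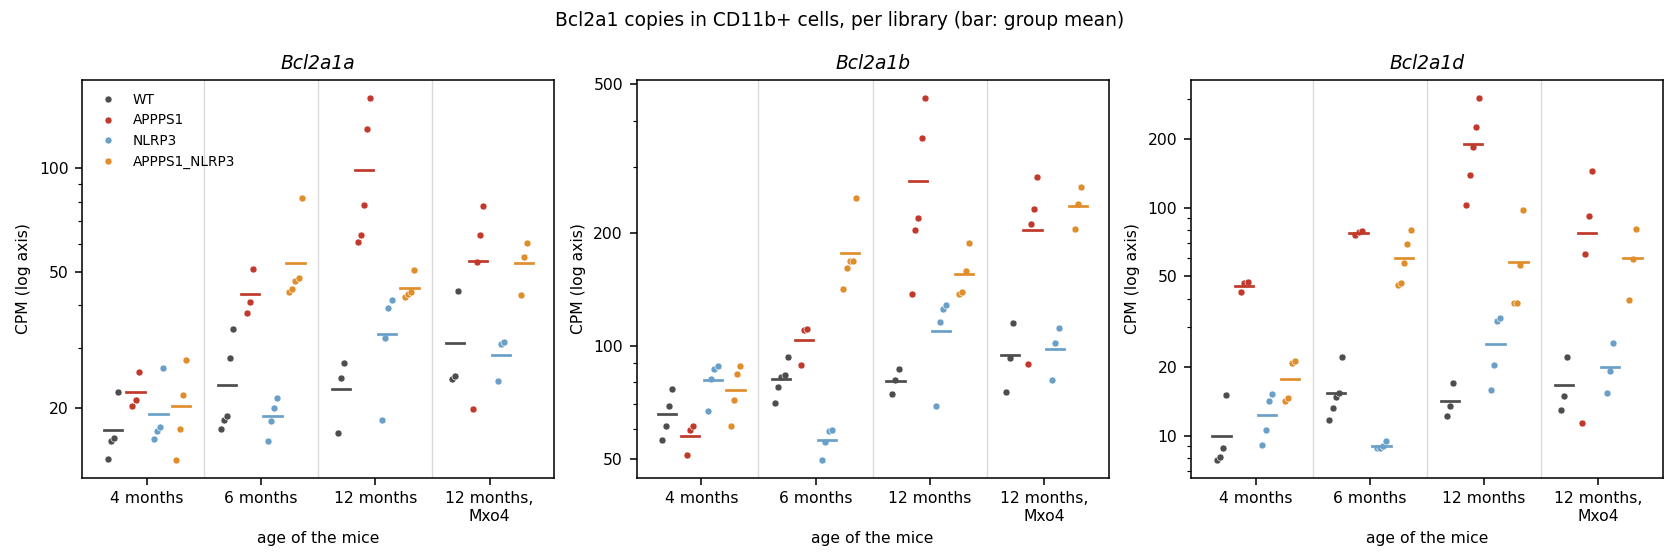
Levels of the 3 Bcl2a1 copies in each library of usable depth, in CPM on a log axis, by age and Mxo4 tag; points are libraries, bars are group means and colours are genotypes. The 3 APPPS1 libraries at 4 months sit between 42.9 and 47.1 CPM for Bcl2a1d, above every other 4-month library, and the highest points of each copy are in APPPS1 at untagged 12 months.

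The copies were also summed, since reads may have been shared among them. If reads that fit several copies were left out of the counts, the sum lacks them too. Summed and tested as 1 gene, the copies differed between APPPS1 and WT by 0.45 ± 0.27 at 4 months (edgeR, adjusted p = 1), rose by 0.87 ± 0.25 at 6 months (adjusted p = 0.0428), by 2.27 ± 0.28 at untagged 12 months (adjusted p = 9.16e-08) and by 1.25 ± 0.28 in the Mxo4 set (adjusted p = 0.00309). Between APPPS1_NLRP3 and NLRP3 the sum differed by 0.01 ± 0.25 at 4 months (adjusted p = 1) and by 0.61 ± 0.25 at untagged 12 months (adjusted p = 0.133). It rose by 1.78 ± 0.25 at 6 months (edgeR, adjusted p = 2.17e-06) and by 1.22 ± 0.29 in the Mxo4 set (adjusted p = 0.00562). Bcl2a1d was the only copy called at 4 and 6 months with Nlrp3 and at untagged 12 months without it, and of these the sum was called at 6 months.

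The share of Bcl2a1d among the counts of the copies separated untagged APPPS1 libraries from those without transgenes. This pattern was noticed after the values were seen and is given with no test. In the 30 usable libraries without transgenes it lay between 8.80% and 16.2%, with a median of 11.9%. In the 11 untagged APPPS1 libraries it lay between 31.6% and 38.3%, with a median of 34.3%, and was as high at 4 months (34.9% to 37.2%) as at 12 months (31.6% to 38.2%). In the 16 APPPS1_NLRP3 libraries the median was 17.7% and the lowest share 13.8%, within the range without transgenes. Replicate 43 had the highest of them at 34.2% (exact binomial 95% interval 33 to 35.4), and the next had 25.2%. In APPPS1_12m_Mxo4 the shares were 9.42%, 17.9%, 20.3% and 34.5% for replicates 56, 57, 58 and 59. The interval treats reads as independent. Reads carried no molecular identifiers, so it may be too narrow even for counting error. It leaves out the spread between libraries and the mapping of reads that fit several copies.

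**Figure D2:**
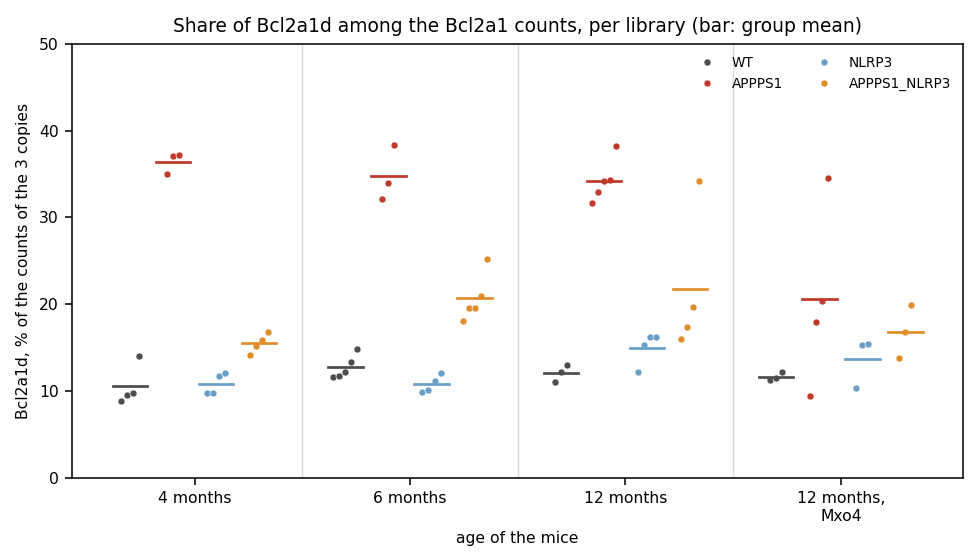
Bcl2a1d counts as a percentage of the counts of Bcl2a1a, Bcl2a1b and Bcl2a1d in each library, by age and Mxo4 tag; points are libraries and bars group means. The untagged APPPS1 libraries lie between 31.6% and 38.3% at each age, and 1 APPPS1_NLRP3 library at untagged 12 months (34.2%) and 1 APPPS1 library of the Mxo4 set (34.5%) lie in the same range.

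Bcl2, the founding member of the family, rose in 5 of the 8 transgene comparisons, after Bcl2a1d in 7 and before Bcl2a1b in 4. Its transcript was scarce, with group means between 8.94 CPM in WT_12m and 25.3 CPM in APPPS1_NLRP3_12m. At untagged 12 months it was 22.4, 28.1, 27.1, 21.99 and 17.4 CPM in APPPS1 and 9.80, 7.61 and 9.39 CPM in WT. Every APPPS1 library lay above every WT library, and Bcl2 rose by 1.35 ± 0.23 (edgeR, adjusted p = 9.98e-06). In APPPS1_NLRP3 it was 31.6, 24.3, 27.02 and 18.1 CPM against 10.8, 7.26, 14.1 and 12.6 CPM in NLRP3, a rise of 1.15 ± 0.21 (edgeR, adjusted p = 0.000155). These groups did not overlap either, and no single library carried the call. Of the transgene calls at untagged 12 months, Bcl2 and Bcl2a1d were those made with and without Nlrp3.

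In the Mxo4 set Bcl2 was 9.42, 32.8, 30.4 and 21.5 CPM in APPPS1 and 12.5, 8.16 and 6.71 CPM in WT, a rise of 1.33 ± 0.23 (edgeR, adjusted p = 0.000153). Only replicate 56 fell within the WT range, and within second title number 2, where it is the 1 APPPS1 library, the difference was -0.41 (adjusted p = 1). In APPPS1_NLRP3_12m_Mxo4 Bcl2 was 20.9, 25.04 and 29.6 CPM against 9.10, 10.8 and 8.09 CPM, a rise of 1.49 ± 0.24 (edgeR, adjusted p = 3.26e-05) with no overlap. At 6 months it was 20.7, 15.97 and 19.3 CPM in APPPS1 and 10.6, 9.92, 10.99, 14.3 and 10.3 CPM in WT, a rise of 0.74 ± 0.21 (edgeR, adjusted p = 0.0347). The groups did not overlap, but the call was lost without any 1 of replicates 16, 17, 18, 20, 22, 23 or 24, with adjusted p between 0.0565 and 0.153. It was also lost with both title numbers in the model (0.54, adjusted p = 0.358), with neither (0.73, 0.0516) and within second title number 1 (0.75, 0.591). Without Nlrp3 at 6 months the difference was 0.53 ± 0.20 and missed the threshold (adjusted p = 0.0857). At 4 months it was 0.42 ± 0.22 and 0.38 ± 0.20 with and without Nlrp3, each with an adjusted p of 1.

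Mcl1 was the most abundant member by CPM. Its group means lay between 859.7 CPM in NLRP3_6m and 1522 CPM in APPPS1_NLRP3_12m_Mxo4, a 1.77-fold range. At untagged 12 months it was 1527, 1537, 1198, 1584 and 1551 CPM in APPPS1 and 1067, 1247 and 1060 CPM in WT. Replicate 37 fell within the WT range and the other 4 lay above it, and Mcl1 rose by 0.42 ± 0.14 (edgeR, adjusted p = 0.0323). The call was lost without any 1 of replicates 34, 35, 36, 38, 40 or 41, with adjusted p between 0.052 and 0.133. Both title numbers (0.33, adjusted p = 0.183), neither (0.40, 0.0583) and second title number 1 alone (0.45, 0.612) ended it too. Without Nlrp3 at 12 months the difference was -0.16 ± 0.14 (adjusted p = 0.548). At 6 months without Nlrp3 Mcl1 was 1141, 1096, 1235, 1330 and 1024 CPM against 965.6, 839.1, 830.8 and 803.3 CPM. These groups did not overlap, and Mcl1 rose by 0.43 ± 0.13 (edgeR, adjusted p = 0.0246), a call lost without replicate 27 (adjusted p = 0.0798), 30 (0.134), 32 (0.0873) or 33 (0.122), with both title numbers (0.43, 0.0506) and within second title number 1 (0.56, 0.265) or 2 (0.32, 0.135). In the Mxo4 set the difference was 0.37 ± 0.15 with Nlrp3 (edgeR, adjusted p = 0.149), called without replicate 56 (0.45, adjusted p = 0.0465), and -0.02 ± 0.16 without Nlrp3.

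Bcl2l1 encodes Bcl-xL, a survival protein that binds Bax and BH3-only proteins. It was called in APPPS1_NLRP3 at 6 months, where it was 130.6, 121.7, 110.7, 199.9 and 156.5 CPM against 82.2, 122.9, 99.4 and 93.9 CPM in NLRP3. The ranges overlapped through replicates 27, 28 and 29, and replicate 30 was highest. The rise was 0.55 ± 0.13 (edgeR, adjusted p = 0.00196), and within second title numbers 1 and 2 it was 0.57 and 0.53 and not called (adjusted p = 0.106 and 0.0553). In the Mxo4 set without Nlrp3 it was 100.1, 125.6 and 125.5 CPM against 76.1, 86.7 and 93.2 CPM, a rise of 0.52 ± 0.15 (edgeR, adjusted p = 0.0289) without overlap. That call was lost without any 1 of replicates 50, 51, 53 or 54, with adjusted p between 0.132 and 0.146. It was lost too with both title numbers (0.48, adjusted p = 0.0869), with neither (0.46, 0.135), with a sex term (0.50, 0.0524) and within second title number 2 (0.50, 0.0638). With Nlrp3 intact Bcl2l1 was not called, with differences of 0.09, 0.12, 0.22 and 0.34 at 4, 6, untagged 12 and Mxo4 12 months. The last was called without the doubted libraries (0.44, edgeR, adjusted p = 0.0275).

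**Figure D3:**
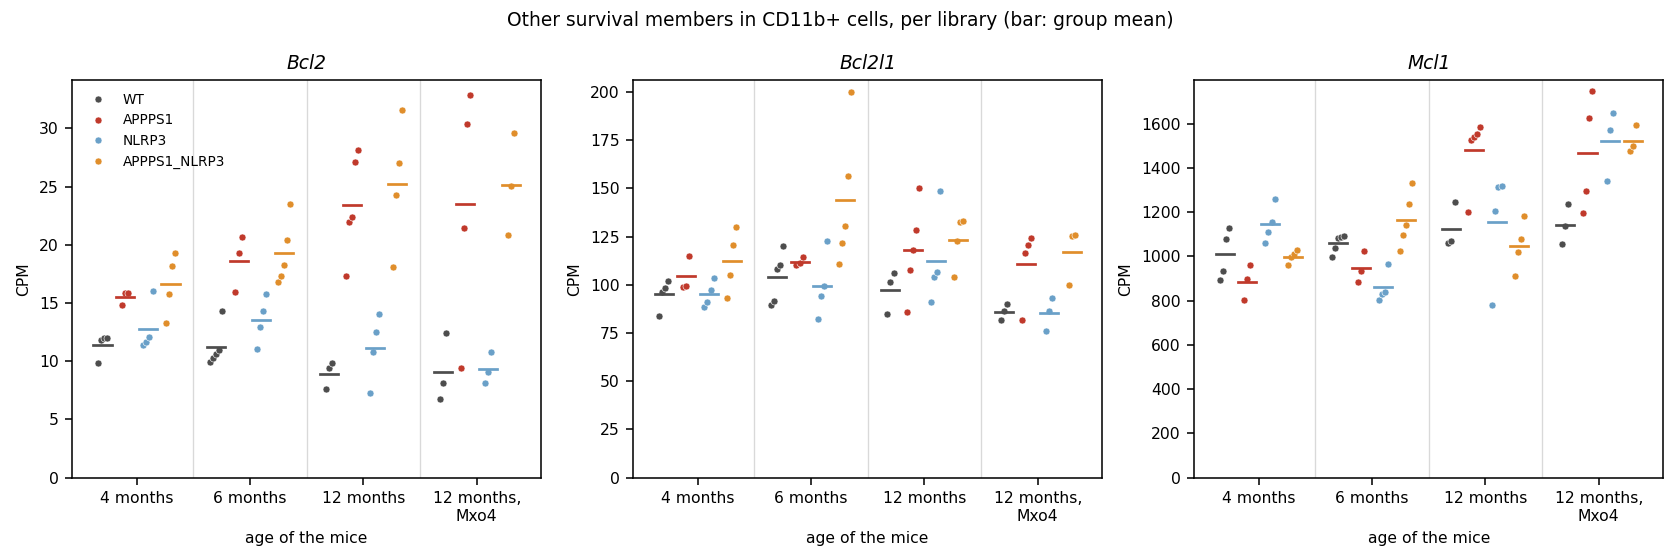
Levels of Bcl2, Bcl2l1 and Mcl1 in each library of usable depth, in CPM, by age and Mxo4 tag; points are libraries, bars group means and colours genotypes. At untagged 12 months the APPPS1 and APPPS1_NLRP3 libraries of Bcl2 lie between 17.4 and 31.6 CPM and those without transgenes between 7.26 and 14.1 CPM, while the ranges of Bcl2l1 overlap.

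Of the members that promote death, Bid and Bax were called. Bid was lower with the transgenes in the Mxo4 set of both Nlrp3 genotypes. It was 73.7, 47.4, 45.5 and 52.4 CPM in APPPS1 against 82.7, 75.5 and 77.3 CPM in WT, and fell by 0.52 ± 0.14 on the log2 scale (edgeR, adjusted p = 0.0186). All 4 APPPS1 libraries lay below all WT libraries, with replicate 56 close to them. It was 62.9, 58.7 and 46.2 CPM in APPPS1_NLRP3 against 90.2, 86.6 and 73.0 CPM in NLRP3, and fell by 0.62 ± 0.15 (edgeR, adjusted p = 0.00742). The groups did not overlap. The first call was lost without any 1 of replicates 57 to 62 (adjusted p between 0.0542 and 0.117) and within second title number 2 (-0.17, adjusted p = 1), and the second without replicate 51 (0.0614) or 54 (0.108). The untagged 12-month differences were -0.26 ± 0.14 and -0.35 ± 0.13 with and without Nlrp3 (edgeR, adjusted p = 0.177 and 0.0963), the second called without replicate 43 (-0.45, 0.0449) or 47 (-0.46, 0.0325). They were -0.33 ± 0.14 and -0.19 ± 0.12 at 6 months (adjusted p = 0.18 and 0.414).

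Bax was called in 1 comparison, at 6 months without Nlrp3. It was 24.4, 20.4, 17.1, 26.6 and 37.3 CPM in APPPS1_NLRP3 and 14.7, 20, 21.5 and 15.1 CPM in NLRP3. The ranges overlapped and replicate 31 was highest. The rise of 0.52 ± 0.17 (edgeR, adjusted p = 0.0457) fell to 0.31 without replicate 31 (adjusted p = 0.32) and lost its call without replicate 26, 27, 30, 32 or 33 too (adjusted p between 0.0547 and 0.158). It was also lost with both title numbers (0.49, adjusted p = 0.117), with neither (0.49, 0.0735), with ratio size factors (0.49, 0.0567), without the filter (0.53, 0.06) and within second title number 1 (0.29, 0.598) or 2 (0.71, 0.214). Bax at untagged 12 months was 34.2, 31.4, 22.3, 28.7 and 17.8 CPM in APPPS1 and 16.9, 20.3 and 19.7 CPM in WT, a difference of 0.48 ± 0.19 that missed the threshold (edgeR, adjusted p = 0.066). DESeq2 called it (adjusted p = 0.0419), as did edgeR without the doubted libraries (0.50, adjusted p = 0.0367), without replicate 37 (0.55, 0.0314) or without replicate 41 (0.55, 0.0405).

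Bcl2l11 was called in none of the 30 comparisons (edgeR, unadjusted p below 0.05 in 2, and no call by DESeq2). Its group means lay between 63.9 CPM in NLRP3_12m and 88.4 CPM in APPPS1_12m_Mxo4, a 1.38-fold range and the narrowest of the members. Bak1 was near the lower limit of what these libraries measure, with 0.24 to 1.92 CPM per library. Its transgene differences had standard errors of 0.43 to 0.52 and it was never called. Differences of Bak1 within those errors were not detectable at this depth.

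**Figure D4:**
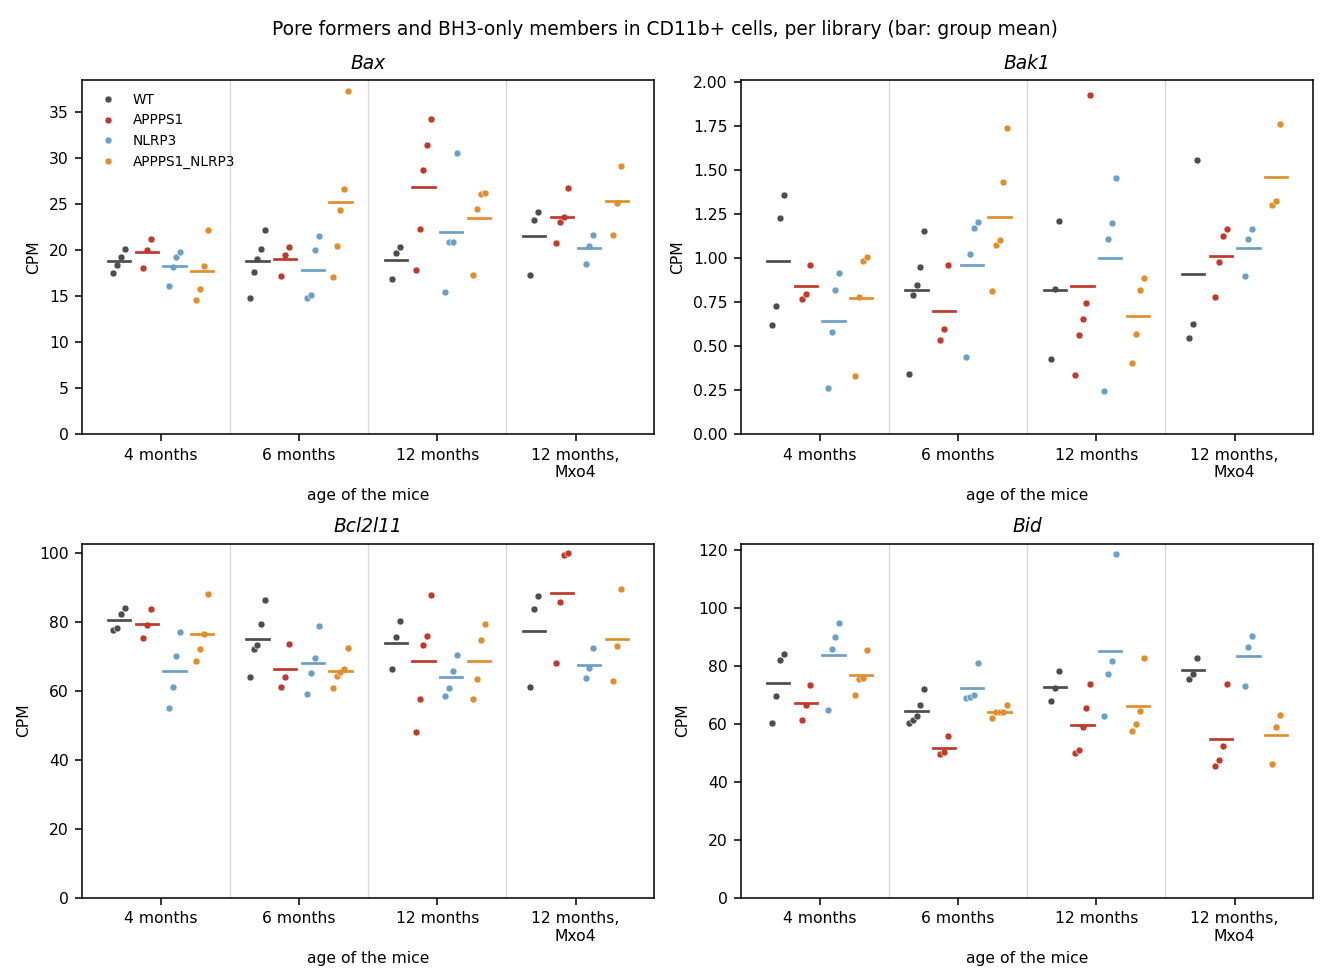
Levels of Bax, Bak1, Bcl2l11 and Bid in each library of usable depth, in CPM, by age and Mxo4 tag; points are libraries, bars group means and colours genotypes. The 4 APPPS1 libraries of Bid in the Mxo4 set lie between 45.5 and 73.7 CPM and the 3 WT libraries between 75.5 and 82.7 CPM, and no library of Bak1 exceeds 1.92 CPM.

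**Figure D5:**
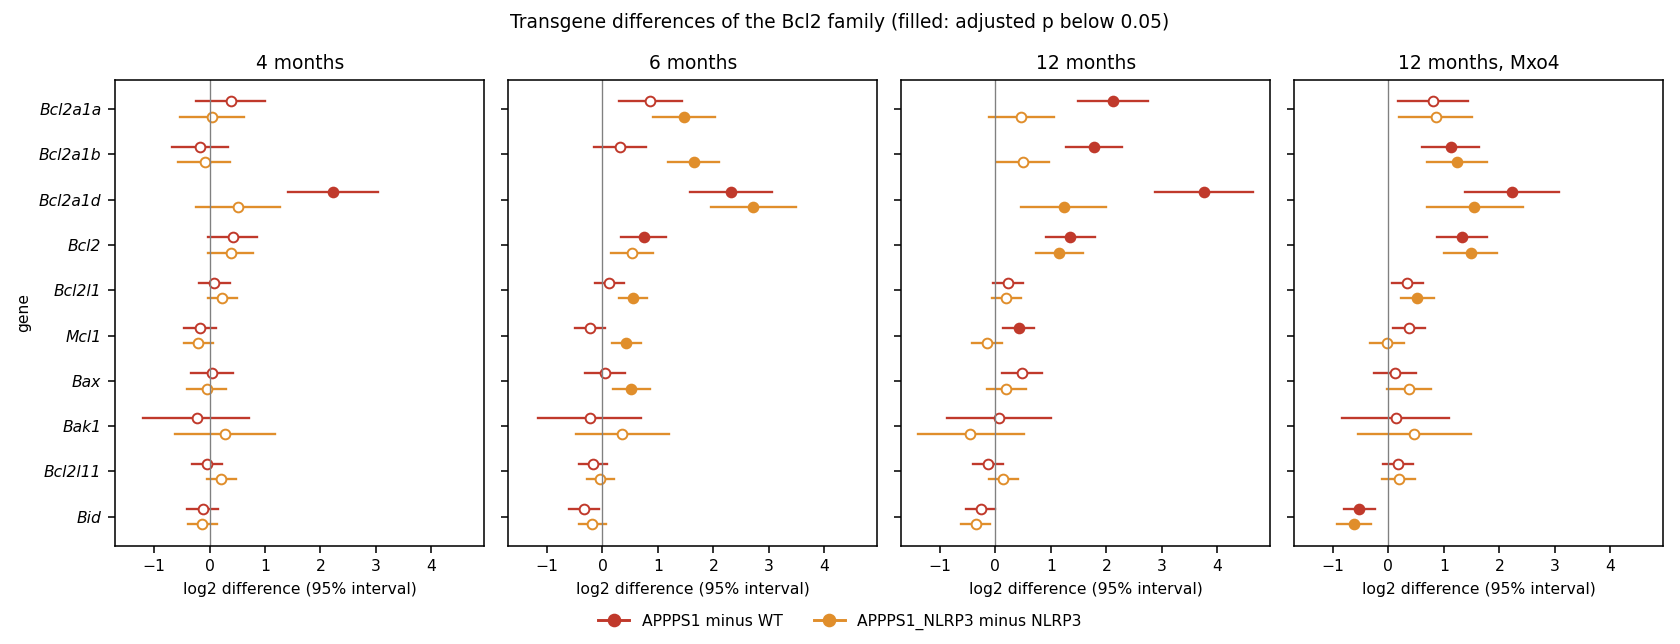
Log2 differences of the 10 members between mice with and without transgenes at each age and in the Mxo4 set, with Nlrp3 intact and without it; points are edgeR estimates, lines 95% intervals and filled points are called. Bcl2a1d at untagged 12 months differs by 3.76 with Nlrp3 and 1.23 without it while Bcl2 differs by 1.35 and 1.15, and the Bid intervals of the Mxo4 set lie below 0.

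Over the 10 members the median transgene difference with Nlrp3 intact was 0.00, 0.08, 0.45 and 0.35 (log2) at 4, 6, untagged 12 and Mxo4 12 months, beside medians of 0.01, -0.03, -0.07 and -0.02 over all tested genes. Without Nlrp3 the medians were 0.13, 0.52, 0.20 and 0.50, beside -0.00, -0.04, -0.05 and -0.05. Of the 6 survival genes, 1, 2, 5 and 3 rose with Nlrp3, where 0.0252%, 3.03%, 18.1% and 5.08% of all genes were called. Without Nlrp3, 0, 5, 2 and 4 rose, beside 0.0101%, 8.03%, 8.69% and 5.14% of all genes. The 3 Bcl2a1 copies share reads and are not independent in these counts. Of the 4 death-promoting genes, Bax rose in 1 of the 8 comparisons and Bid fell in 2. These comparisons share no libraries between the Nlrp3 genotypes.

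Loss of Nlrp3 was asked about in mice without and with transgenes. Between NLRP3 and WT no member was called at 4, 6, untagged 12 or Mxo4 12 months, where 0.378%, 0.443%, 1.47% and 0.0956% of all genes were called (edgeR, 1, 3, 0 and 1 members at an unadjusted p below 0.05, and 0 by DESeq2). Between APPPS1_NLRP3 and APPPS1 no member was called at 4 months (0.206% of all genes), 6 months (0.488%) or in the Mxo4 set (0.287%), with 1, 5 and 0 members at an unadjusted p below 0.05 and 0 by DESeq2. At 4 months Bcl2a1d differed by -1.38 (edgeR, adjusted p = 0.214), and all 4 APPPS1_NLRP3 libraries lay below the 3 APPPS1 libraries given above. Without the doubted libraries, none of which is in these groups, that difference was called (-1.40, adjusted p = 0.0264).

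In the untagged 12-month libraries 4 survival genes were lower in APPPS1_NLRP3 than in APPPS1, where 5.71% of all genes were called. Bcl2a1d fell by 1.73 ± 0.36 on the log2 scale (edgeR, adjusted p = 0.00391), Bcl2a1a by 1.13 ± 0.28 (0.0139), Bcl2a1b by 0.81 ± 0.23 (0.0275) and Mcl1 by 0.51 ± 0.13 (0.0156), with adjusted p in parentheses. The APPPS1_NLRP3 libraries of Bcl2a1a were within 42.3 to 50.4 CPM, against 60.9 to 159.9 CPM in APPPS1. Those of Bcl2a1b were 137.6, 158.3, 139.7 and 187.9 CPM and those of Mcl1 1182, 1078, 909.3 and 1018 CPM. Against the APPPS1 values given above, the groups did not overlap for Bcl2a1d, Bcl2a1a and Mcl1, and overlapped for Bcl2a1b through APPPS1 replicate 37. Bcl2 differed by 0.14 ± 0.19 and was not called (adjusted p = 0.744).

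Bcl2a1d kept its call whichever library was left out, and the other calls did not. Bcl2a1a lost its call without replicate 35 (-0.89, edgeR, adjusted p = 0.0674) or 44 (-1.09, 0.0576), Mcl1 without 44 (-0.51, 0.0536), and Bcl2a1b without 35 (-0.56, 0.139), 41 (-0.68, 0.09), 43 (-0.73, 0.0623), 44 (-0.80, 0.0834) or 46 (-0.78, 0.0545). With both title numbers Bcl2a1a (-1.06, adjusted p = 0.051) and Bcl2a1b (-0.73, 0.0962) were not called, and Bcl2a1b was not called without the filter (-0.81, 0.0542). Within second title number 1 the differences of Bcl2a1d, Bcl2a1a, Bcl2a1b and Mcl1 were -1.60, -0.68, -0.20 and -0.59 with none called (adjusted p = 0.0856, 0.347, 0.755 and 0.308), and within number 2 they were -1.95, -1.62, -1.46 and -0.44 with all called (0.00488, 0.000783, 8.29e-05 and 0.0208). All APPPS1_12m libraries read as female and all APPPS1_NLRP3_12m libraries as male, so sex and the loss of Nlrp3 cannot be told apart here. With a sex term, estimated from the other groups, the differences were -1.42, -0.70, -0.52 and -0.44 for Bcl2a1d, Bcl2a1a, Bcl2a1b and Mcl1 and none was called (adjusted p of 0.0926, 0.29, 0.347 and 0.163). That term rests on groups with both sexes. Among them is APPPS1_12m_Mxo4, where replicate 56 is 1 of 3 males beside 1 female. No fit held a sex term without replicate 56, here or in other comparisons. The summed level of 14 immediate-early genes, induced within minutes of stimulation, was 8324 to 11466 CPM in APPPS1_NLRP3_12m and 15326 to 20878 in APPPS1_12m. Of the 14 genes 4 fell, where 5.71% of all genes were called. Their part in the result was not tested.

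Whether the transgene difference depends on Nlrp3 was tested directly. At untagged 12 months all libraries with Nlrp3 read as female and all those without it as male. Dependence on Nlrp3 and dependence on sex therefore cannot be told apart at that stage. With edgeR no member was called at 4, 6, untagged 12 or Mxo4 12 months, where 0%, 0.0151%, 0% and 0% of all genes were called, with 1, 3, 4 and 0 members at an unadjusted p below 0.05. Taken at untagged 12 months, the APPPS1_NLRP3 minus NLRP3 difference less the APPPS1 minus WT difference was -2.53 ± 0.56 for Bcl2a1d (edgeR, adjusted p = 0.0855), -1.65 ± 0.43 for Bcl2a1a (0.139), -1.28 ± 0.35 for Bcl2a1b (0.141) and -0.58 ± 0.20 for Mcl1 (0.247). DESeq2 called these 4, with adjusted p of 0.00115, 0.0193, 0.0221 and 0.0268. Without replicate 37, edgeR called Bcl2a1d (-2.67, adjusted p = 0.0164), Bcl2a1a (-1.77, 0.0277) and Bcl2a1b (-1.44, 0.0197), and Bcl2a1d was also called without replicate 36 (-2.61, 0.0483) or 43 (-2.88, 0.0452). For Bcl2 the value was -0.20 ± 0.30 and called by neither tool. At 6 months the sign was positive for Bcl2a1b (1.33 ± 0.33, edgeR, adjusted p = 0.175) and Mcl1 (0.66 ± 0.19, 0.252), which DESeq2 called with 0.0292 and 0.0341. DESeq2 called 0 members at 4 months and in the Mxo4 set.

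From 4 to 12 months, untagged, no member was called in WT (0.0252% of all genes called) or NLRP3 (0.418%), with 0 and 2 members at an unadjusted p below 0.05 by edgeR and 0 calls by DESeq2. In APPPS1, where 22.3% of all genes were called, 5 members rose and all libraries involved were female. Bcl2a1b rose by 2.23 ± 0.27 (edgeR, adjusted p = 8.19e-08), Bcl2a1a by 2.11 ± 0.33 (3.16e-06), Bcl2a1d by 2.05 ± 0.41 (0.00018), Mcl1 by 0.73 ± 0.14 (0.000113) and Bcl2 by 0.60 ± 0.21 (0.0354). In none of these 5 called members did the APPPS1_4m and APPPS1_12m libraries overlap, and how many of all genes do the same was not counted. In APPPS1_4m, Bcl2a1b was 51.3, 59.7 and 61.4 CPM, Bcl2a1a 21.2, 20.3 and 25.5 CPM and Mcl1 958.7, 896.9 and 802.4 CPM, all below the 12-month values given above. The Bcl2 call was lost without any 1 of replicates 2, 3, 6, 35, 36 or 37, with adjusted p between 0.0556 and 0.128, with both title numbers (0.52, 0.13) and within second title number 1 (0.76, 0.0531) or 2 (0.36, 0.379). The Mcl1 call was lost within second title number 1 (0.65, 0.0859).

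In APPPS1_NLRP3, where 12.1% of all genes were called, Bcl2a1d rose by 1.70 ± 0.38 (edgeR, adjusted p = 0.00159), Bcl2a1a by 1.16 ± 0.29 (0.00571), Bcl2a1b by 1.04 ± 0.24 (0.00191) and Bcl2 by 0.62 ± 0.20 (0.0357) from 4 to 12 months. The 4-month libraries were female and the 12-month libraries male, so age and sex cannot be told apart between these groups. With a sex term, estimated from the other groups, all 4 stayed called, at 2.01, 1.58, 1.33 and 0.82 for Bcl2a1d, Bcl2a1a, Bcl2a1b and Bcl2 (edgeR, adjusted p = 0.00153, 0.000743, 0.000506 and 0.0175). In APPPS1_NLRP3_4m Bcl2a1b was 61.3, 84.5, 88.3 and 71.8 CPM and Bcl2 15.8, 13.3, 18.2 and 19.3 CPM. The groups did not overlap for the Bcl2a1 copies and overlapped for Bcl2, whose call was lost without any 1 of replicates 9, 11, 43, 44 or 46 (adjusted p between 0.0644 and 0.195), with both title numbers (0.51, 0.147), with neither (0.60, 0.0528) and within second title number 1 (0.37, 0.541).

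The growth of the transgene difference with age was tested as the APPPS1 minus WT difference at 12 months minus that at 4 months. It was called for Bcl2a1b (1.95 ± 0.36, edgeR, adjusted p = 0.00224) and Bcl2a1a (1.73 ± 0.45, adjusted p = 0.0144), among 4.92% of all genes. The Bcl2a1a call was lost without replicate 39 (1.54, adjusted p = 0.0619). For Bcl2a1d the value was 1.54 ± 0.58 (adjusted p = 0.113), and for Bcl2 0.93 ± 0.31 (adjusted p = 0.0676). DESeq2 called 5 members, and without replicate 37 edgeR called Mcl1 too (0.65, adjusted p = 0.0373). Without Nlrp3 no member was called among 1.02% of all genes (edgeR, 1 member, Bcl2, at an unadjusted p below 0.05, and 0 by DESeq2). With both title numbers in the model, the values for Bcl2a1b and Bcl2a1a were 1.71 and 1.33 and not called (adjusted p = 0.0504 and 0.258), and within second title number 1 they were 1.41 and 1.37 (0.131 and 0.401).

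Between the Mxo4 and the untagged 12-month sets, Bcl2a1d was the 1 member called, in APPPS1, where 6.38% of all genes were called. It fell by 1.25 ± 0.36 (edgeR, adjusted p = 0.0319). The ranges overlapped, since replicate 59 reached 144.9 CPM. The call was lost without replicate 56 (-0.83, adjusted p = 0.113), 35 (-1.05, 0.0989), 41 (-1.19, 0.0785) or 57 (-1.16, 0.0679). All untagged APPPS1 libraries were female and 3 of the 4 Mxo4 libraries male, and with a sex term the value was -1.04 (adjusted p = 0.157). With both title numbers it was -0.98 (adjusted p = 0.171), without the filter -1.26 (0.0574), without the doubted libraries -0.82 (0.112) and within second title number 1 -0.50 (0.619). Bcl2a1a differed by -0.81 ± 0.28 (edgeR, adjusted p = 0.0675), called without replicate 36 (-0.94, 0.0323), 37 (-0.95, 0.0253) or 58 (-1.05, 0.0376). Bcl2l11 differed by 0.35 ± 0.12 (adjusted p = 0.0723), called without replicate 36 (0.44, 0.0193), 37 (0.38, 0.0465) or 56 (0.44, 0.0481). No member was called in WT (0.166% of all genes), NLRP3 (6.62%) or APPPS1_NLRP3 (0.916%), with 0, 1 and 4 members at an unadjusted p below 0.05 by edgeR. DESeq2 called 0, 0 and 1, the last being Mcl1 in APPPS1_NLRP3 (0.50, adjusted p = 0.00632). There Mcl1 was 1474, 1500 and 1591 CPM in the Mxo4 set and 1182, 1078, 909.3 and 1018 CPM untagged, with no overlap, and the immediate-early sum was 23891 to 29025 against 8324 to 11466 CPM.

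Markers of other cell types were read beside these results. Neutrophils are known for high Bcl2a1 expression. The summed level of 10 neutrophil markers was 51.8 to 2849 CPM in APPPS1_12m and 90.3 to 294.3 CPM in WT_12m. No neutrophil marker was called between these groups, where 18.1% of all genes were called. In APPPS1 from 4 to 12 months 5 of 10 rose, beside 22.3% of all genes called. The highest neutrophil sum of APPPS1_12m was in replicate 38. In replicate 35, highest for each Bcl2a1 copy, the neutrophil sum was 193.4 CPM. The sums of 10 monocyte markers were 283.1 to 1054 CPM in APPPS1_12m and 489.0 to 696.7 CPM in WT_12m, and 2 of 10 rose. T and NK cell markers summed to at most 25.2 CPM and B cell markers to at most 32.3 CPM in any library. The summed microglial markers were 37459 to 50935 CPM in APPPS1_12m and 39878 to 46277 CPM in WT_12m, with 2 of 10 lower. A count of 2 of 10 is close to the 18.1% of all genes called between APPPS1_12m and WT_12m. Endothelial markers were lower in APPPS1_NLRP3_12m (sums of 190.4 to 367.5 CPM) and in APPPS1_12m_Mxo4 (191.9 to 341.4 CPM) than in APPPS1_12m (462.7 to 662.8 CPM), with 6 and 8 of 10 called and list medians of -1.68 and -1.47. In each of these comparisons 3 of 10 monocyte markers fell, where 5.71% and 6.38% of all genes were called. From 4 to 12 months 4 of 10 markers of border-associated macrophages fell in APPPS1 and 5 of 10 in APPPS1_NLRP3, where 4 of 10 endothelial markers fell too. Of all genes, 22.3% and 12.1% were called in these comparisons. The macrophage sums went from 797.3 to 1348 CPM to 401.8 to 675.3 CPM in APPPS1 and from 1221 to 1956 CPM to 497.2 to 944.6 CPM in APPPS1_NLRP3. The part of these shifts in the results was not tested.

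Other genes of the apoptosis pathway were counted from lists. Of 16 further Bcl2 family and BH3-only genes, 13 were tested. Of these, 2 rose and 0 fell, with and without Nlrp3, and both were the same genes. All counts of this and the next lists are at untagged 12 months unless said otherwise, where 18.1% of all genes were called with Nlrp3 and 8.69% without it. Bnip3, a mitochondrial protein known from hypoxia and mitophagy, rose from 79.2 to 210.1 CPM with Nlrp3 (1.42 ± 0.18, edgeR, adjusted p = 1.18e-07) and from 76.1 to 154.9 CPM without it (1.01 ± 0.17, 5.82e-05). Pmaip1, which encodes the BH3-only protein Noxa, a partner of Mcl1, rose from 76.4 to 168.9 CPM (1.15 ± 0.23, 0.000187) and from 46.6 to 97.2 CPM (1.05 ± 0.22, 0.000962). The median difference of the list was 0.16 and -0.06, beside -0.07 and -0.05 over all genes.

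Of 18 mitochondrial apoptosis effectors, 3 rose in APPPS1 at untagged 12 months and 1 rose and 1 fell in APPPS1_NLRP3, shares close to those of all genes. Birc5, survivin, which also serves cell division, rose from 1.10 to 4.52 CPM (2.07 ± 0.41, edgeR, adjusted p = 0.000147) and from 1.199 to 6.18 CPM (2.06 ± 0.39, 0.000182). Cycs, cytochrome c, rose by 0.52 ± 0.15 and Vdac2, a channel of the outer membrane, by 0.33 ± 0.11 with Nlrp3, and Birc3, an inhibitor of apoptosis, fell by 0.48 ± 0.15 without it. Of 12 death receptor genes, Casp8, which cleaves Bid, was the 1 called in each comparison and fell by 0.45 ± 0.09 and 0.30 ± 0.09 (edgeR, adjusted p = 0.000125 and 0.0206). Its mean level was 160.4 against 226.9 CPM and 169.5 against 203.8 CPM.

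Of 12 p53 pathway genes, 3 rose and 2 fell with Nlrp3, and 2 rose and 1 fell without it. Perp, a p53 target at cell junctions, rose by 1.47 ± 0.35 and 1.52 ± 0.34 (edgeR, adjusted p = 0.00162 and 0.002). Cdkn1a, the cell cycle inhibitor p21, rose by 0.82 ± 0.18 with Nlrp3, and Ccng1 by 0.46 ± 0.12 without it, while Sesn1 fell by 0.41 ± 0.11 and 0.34 ± 0.11. Of 13 NF-kB subunits and inhibitors, Nfkbiz (0.87 ± 0.24) and Tnfaip3 (0.82 ± 0.23) rose with Nlrp3, and none was called without it. At 6 months 7 of the 13 rose without Nlrp3, where 8.03% of all genes were called (median 0.49, beside -0.04 over all genes), and none was called with Nlrp3. Whether these genes bear on the members was not tested. Foxo1, a FoxO transcription factor, fell by 0.42 ± 0.11 with Nlrp3 and by 0.38 ± 0.11 without it.

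Across the 16 group means of log2(CPM + 1), the copies resembled each other, with Pearson r of 0.94 for Bcl2a1a and Bcl2a1b, 0.91 for Bcl2a1a and Bcl2a1d and 0.79 for Bcl2a1b and Bcl2a1d. These r describe groups that share ages, transgenes and the mapping of shared reads. Bax followed Bcl2a1b (r = 0.92) and Bcl2a1a (0.91), and Bid ran opposite to Bcl2 (-0.75) and Bcl2a1d (-0.73). Among 10142 other genes of at least 5 CPM, those most like Bcl2a1a were Rpl35, Rps18 and Rps7 (r = 0.98 each), which encode ribosomal proteins, and those most like Bcl2a1b were H2-Q7, Txndc17 and Atp6v1f (0.98, 0.97 and 0.97). Those most like Bcl2a1d were Il4i1, Capg and Slc16a3 (0.94 each). Bcl2 was most like Myo1e, Etl4 and Scarb1 (0.96, 0.95 and 0.95).

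Mcl1 was most like Ifrd1, Nfkbia and Tnfaip3 (r = 0.98, 0.97 and 0.96), the last 2 being inducible inhibitors of NF-kB signalling. Bax was most like Aprt, Zmynd15 and Lgals3 (0.95, 0.94 and 0.94), and Bid like Cmtm7, Ptp4a3 and Fbrsl1 (0.95, 0.95 and 0.93). Bcl2l11 was most like Ubr2 (0.89) and Bcl2l1 like Adora1 (0.86), followed by Cdk14 and the cell division gene Top2a (0.85 each). Bak1, at its low counts, reached at most 0.76, with Dnajc1.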

How the data were processed

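RNA-seq counts of 62 libraries of mouse CD11b+ cells in 16 groups of 3 to 5 were analysed. Per the labels' protocols, libraries were made from 10 ng of RNA with SMART-Seq v4 in 2 library batches, sequenced in pools of 7 to 8 and read paired at 125 bases. Per the submitters' processing notes, reads were processed with Trimmomatic, TopHat and HTSeq on mm10, and the versions and the roles of the tools are not given in the sources used here. The authors deposited raw read counts for 53801 Ensembl genes, of which 53620 were matched to a symbol through a table of Ensembl IDs. Gene positions are those of GENCODE vM21 (GRCm38). How counting treated strand and reads that fit several genes is not given either.

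Counts were tested with edgeR 4.0.16 in R 4.3.3 (limma 3.58.1), by quasi-likelihood F tests with robust dispersion in 1 fit of all 62 libraries, with TMM scaling, terms for the groups and for the second title number, which has 2 values. filterByExpr (minimum count 10, minimum total 15) left 19865 genes, with all 10 members. P-values are two-sided and adjusted by Benjamini and Hochberg over all tested genes of each of 30 comparisons, with 0.05 as the threshold. Alternatives were DESeq2 1.42.0, ratio size factors, no filter, no title number, both title numbers, each second title number alone, a sex term, the Bcl2a1 copies summed, and each library left out in turn, refitted for the comparisons of its group with the tested genes and trended dispersions kept. Leaving out replicates 21, 45 and 56 together was chosen after seeing the data.

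Levels are CPM on TMM-scaled libraries of at least 1e+05 counts, 61 of 62, with TMM factors of 0.75 to 1.08. Total counts set the precision: at the median of 18392142.5 counts, counting error is small for all members except Bak1. The members and the gene lists were chosen with earlier results of these data known. All members are named, and of each pathway list up to 3 called genes with the smallest adjusted p in each untagged 12-month transgene comparison. Some genes that this rule names, and the counts of the FoxO and survival kinase list, are not reported here. For likeness, the 3 genes with the highest r over the 16 group means of log2(CPM + 1) are named, among genes of at least 5 CPM that are not predicted genes, clones or pseudogenes.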

Additional observations from a re-analysis of the deposited data

Results flagged for a closer look

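Of 100 sets of 4 or 5 libraries, 1 per member and group, 11 held a library far from the others of its group by Dixon's criterion, which chance meets in about 1 in 20 sets. In APPPS1_NLRP3_6m, replicate 31 was high for Bcl2a1a (81.9 CPM against 43.5 to 47.9 CPM) and Bcl2a1b (248.3 against 141.7 to 168.8 CPM). In APPPS1_NLRP3_12m, replicate 43 was high for Bcl2a1a (50.4 against 42.3 to 43.4 CPM). In NLRP3_4m, replicate 8 was high for Bcl2a1a (26.2 against 16.3 to 17.6 CPM) and replicate 15 for Bcl2 (16.1 against 11.4 to 12.1 CPM). In WT_4m, replicate 4 was high for Bcl2a1d (15.1 against 7.86 to 8.82 CPM) and replicate 5 low for Bcl2 (9.83 against 11.8 to 12.0 CPM).

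In WT_6m, replicate 19 was high for Bcl2 (14.3 against 9.92 to 10.99 CPM). In APPPS1_12m, replicate 37 was low for Mcl1 (1198 against 1527 to 1584 CPM) and replicate 35 high for Bak1 (1.92 against 0.336 to 0.743 CPM). In NLRP3_6m, replicate 27 was high for Bid (80.9 against 68.8 to 69.9 CPM).

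The APPPS1 minus WT difference was larger at 12 than at 4 months for Bcl2a1b, by 1.95 on the log2 scale, and for Bcl2a1a, by 1.73, by edgeR's test of the difference between the differences.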

How the results depend on the processing

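The counts of members called with Nlrp3 intact (12 of 40 tests) stayed within 1.5 times of that count under each alternative, at 10 to 14 with single libraries left out. Without Nlrp3, 13 were called, 10 to 13 with single libraries left out, 4 within second title number 1 and 8 within number 2. No APPPS1_NLRP3_12m_Mxo4 library has second title number 1, so comparisons with this group could not be run within number 1. Of the 13 calls, 5 were between this group and NLRP3_12m_Mxo4. Counts within number 1 for the loss of Nlrp3, the Mxo4 tag and differences between differences lack this group's comparisons too. For the loss of Nlrp3 the count was 4, and 1 to 4 with single libraries left out. It was 2 with the Bcl2a1 copies summed, 2 with both title numbers, 0 with the sex term, 0 within second title number 1 and 8 within number 2, of which 4 set replicate 56, the 1 APPPS1_12m_Mxo4 library there, against APPPS1_NLRP3_12m_Mxo4. For age it was 9, 8 to 10 with single libraries left out, and 5 with the copies summed, an alternative in which 3 members became 1.

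For the Mxo4 tag the count was 1, and 0 to 3 with single libraries left out. It was 0 with the copies summed, with both title numbers, without the filter, with the sex term and within second title number 1. It was 3 with DESeq2, 2 with no title number, 4 within second title number 2 and 3 without the doubted libraries. Within number 2 the APPPS1_12m_Mxo4 group is replicate 56 alone. Against APPPS1_12m, Bcl2, Bcl2a1a and Bcl2a1b differed there by -1.10, -2.87 and -2.20. For the tests of differences between differences the count was 2, and 1 to 6 with single libraries left out. It was 1 with the copies summed, 11 with DESeq2, 0 with both title numbers, 0 within second title number 1, 6 within number 2 and 6 without the doubted libraries. The causes of these moves were not tested.

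Values called in the fit of all libraries or in an alternative changed sign only within second title number 2, in comparisons with replicate 56. Against WT_12m_Mxo4, Bcl2 was -0.41 and Bcl2a1d -0.19 there. APPPS1_NLRP3 minus APPPS1 in the Mxo4 set was 1.44 for Bcl2a1a and 2.43 for Bcl2a1d there. In the fit of all libraries these were -0.14 and -0.46, and neither was called. Ratio size factors moved the median of all genes by at most 0.04 downward in log2, and the DESeq2 test by at most 0.08. No paired analysis was possible by replicate number because each occurs once, and the title numbers that groups share were used as model terms. Depth limits Bak1, with at most 1.92 CPM, and libraries 21 and 45.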
